A study of Mus musculus with 12 samples.

Results

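Intercalated cells of the kidney collecting system were examined through 9 genes of acid and base secretion: Slc4a1, Slc26a4, Slc4a9, Atp6v1b1, Atp6v0d2, Atp6v1g3, Foxi1, Hmx2 and Car12. The genes were a list given by symbol, and each symbol was matched to the Ensembl identifier in the count files, which hold 57180 genes. All 9 genes were found, and all 9 were among the 17163 genes that passed the filter on low counts. Kidney poly(A) RNA was sequenced from 12 male C57BL/6J mice, 60 days old at the start, with 1 library per mouse. The mice were injected intraperitoneally once a day for 28 days. The Control group (4 mice) received saline with Tween 80, and the groups 10CBD and 20CBD (4 mice each) received the same vehicle with cannabidiol (CBD) at 10 or 20 mg per kg of body weight. Every control mouse therefore shared the injections and the vehicle with the treated mice, and no uninjected mice were analysed. RNA was taken from a small piece of each kidney, and the labels do not say from which zone.

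Type A intercalated cells secrete protons into the urine through a vacuolar proton pump in the apical membrane and return bicarbonate to the blood through the exchanger AE1. Type B cells carry out the reverse task and release bicarbonate into the urine through the exchanger pendrin. The cells are scattered among the principal cells of the connecting tubule and collecting duct, and the forkhead factor Foxi1 is required for their identity and for the expression of pump and exchanger genes.

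No gene of the list differed between any pair of groups at an adjusted p-value under 0.1, the threshold used in the study. The largest estimates were those of the pump subunit Atp6v0d2 and of pendrin (Slc26a4), which lay 22.7% and 24.0% below the Control level at 20 mg/kg, with adjusted p-values of 0.503 and 0.56 (edgeR quasi-likelihood test). The type A exchanger lay 20.3% below Control at 10 mg/kg and 18.1% below it at 20 mg/kg, with wide intervals. The ratio of type A to type B transcripts did not differ beyond the spread between mice. In whole tissue, fewer intercalated cells and less RNA per cell cannot be told apart.

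The 12 libraries held 15417867 to 23532088 counts on genes, and the 9 genes had 129 to 4575 counts per library. Mitochondrial genes took 3.53 to 23.4% of the counts. In 4 libraries (Control mouse 2, 10CBD mice 1 and 3, and 20CBD mouse 3) this share was at most 5.77%, and in the other 8 it was at least 12.8%. Levels are given as CPM, counts scaled to a common library size after TMM normalization. Different genes are ranked by level per length of exon, as RPKM. Sums over gene lists, their ratio and the ratios of type A to type B genes use CPM without length. They serve to compare groups, not genes. Nothing in the labels says more of the mice than a number within each group, so the tests measure the spread between these mice.

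Stretches of 250 bases before the transcription start were read from the RefSeq promoter table (build GRCm38.p6), which has an entry for 6 of the 9 genes (Slc26a4, Atp6v1b1, Atp6v1g3, Foxi1, Hmx2 and Car12). They were searched on both strands for the forkhead core AAACA, which reads TGTTT on the other strand, and for the longer form GTAAACA, which reads TGTTTAC on the other strand, since a forkhead factor belongs to the list. The core lies inside the longer form. Of 32851 stretches of this length in the table, 46.4% held the core and 3.17% held the longer form. The 6 genes have 7 stretches, since Hmx2 has 2 entries. The core was present in 6 of the 7 stretches, all but the second of Hmx2, and the longer form in 1, that of Atp6v1b1. The 3 stretches below show the gene with the longer form, the gene with the highest level per length and the type B exchanger pendrin. They read 5′ to 3′ in the direction of the gene, with matches in capitals.
Atp6v1b1, chr6:83742767-83743016, plus strand: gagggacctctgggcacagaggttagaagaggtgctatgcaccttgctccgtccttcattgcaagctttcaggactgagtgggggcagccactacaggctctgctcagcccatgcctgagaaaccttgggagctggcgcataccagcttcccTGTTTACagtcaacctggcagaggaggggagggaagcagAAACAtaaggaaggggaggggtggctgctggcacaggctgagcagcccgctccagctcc
Atp6v1g3, chr1:138273488-138273737, plus strand: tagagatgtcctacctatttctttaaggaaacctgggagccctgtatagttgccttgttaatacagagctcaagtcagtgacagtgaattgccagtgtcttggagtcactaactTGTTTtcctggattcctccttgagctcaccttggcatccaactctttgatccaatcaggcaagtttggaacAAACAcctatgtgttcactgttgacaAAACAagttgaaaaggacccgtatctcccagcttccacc
Slc26a4, chr12:31559985-31560234, minus strand: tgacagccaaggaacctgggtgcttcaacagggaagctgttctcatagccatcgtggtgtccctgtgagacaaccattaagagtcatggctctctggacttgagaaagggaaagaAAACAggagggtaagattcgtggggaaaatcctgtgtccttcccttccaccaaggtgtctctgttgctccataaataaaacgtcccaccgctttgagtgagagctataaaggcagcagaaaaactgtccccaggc
In Atp6v1b1 the longer form began 98 bases before the start and a separate core 59 bases before it. In Atp6v1g3, 3 cores began 136, 65 and 39 bases before the start, and in Slc26a4 a single core began 135 bases before it. Such matches describe the letters only, and a core is found in many promoters.

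Slc4a1 (ENSMUSG00000006574, chr11:102239650-102257029, minus strand, GRCm39, as are the gene positions that follow) encodes AE1, the basolateral chloride-bicarbonate exchanger of type A cells, and also band 3 of red blood cells. Its levels in the Control mice were 63.3, 49.0, 34.7 and 36.5 CPM. They were 32.6, 33.9, 29.8 and 50.2 CPM in the 10CBD mice, and 34.0, 43.8, 34.8 and 37.7 CPM in the 20CBD mice. Control mice 1 and 2 and 10CBD mouse 4 were high, the remaining mice of these groups lay at 29.8 to 36.5 CPM, and the groups overlapped. The log2 fold change against Control was -0.33 (SE 0.198, 95% interval -0.75 to 0.10, adjusted p = 0.891) at 10 mg/kg and -0.29 (SE 0.199, interval -0.71 to 0.14, adjusted p = 0.765) at 20 mg/kg. Without Control mouse 1, these differences were -0.13 and -0.09. The first was -0.52 without 10CBD mouse 4 and -0.10 in the 8 libraries of higher mitochondrial share.

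Haemoglobin genes were read beside Slc4a1, because red cells use the gene as well. The summed level of the 5 red cell genes that passed the filter ranged from 627 to 1470 CPM in Control, from 639 to 1168 CPM in 10CBD and from 711 to 1693 CPM in 20CBD. Over the 12 mice, Slc4a1 and the beta-globin gene Hbb-bs had a Pearson r of -0.10 (permutation p = 0.751) and a Spearman rho of -0.13 (permutation p = 0.699), and r was 0.34 without the 2 mice farthest from the median of Slc4a1. Adjusted over the 11 relations computed, these p-values were 0.857 and 0.699. Among the 8 libraries of higher mitochondrial share, r was -0.48 and rho -0.40. No rise of Slc4a1 with the RNA of Hbb-bs was detectable over these mice. Estimates of the 5 red cell genes lay below 0 for 5 at 10 mg/kg (median log2 fold change -0.45) and for 3 at 20 mg/kg (median -0.08). Of all genes, 47.7% and 47.5% lay below 0, and edgeR called 0 of the 5. Among them, Alas2 had -0.31 (adjusted p = 0.902) and -0.25 (adjusted p = 0.847), near the estimates of Slc4a1. The part of red cells in the Slc4a1 estimates was not tested.

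Slc26a4 (ENSMUSG00000020651, chr12:31568169-31610244, minus strand) encodes pendrin, the apical chloride-bicarbonate exchanger of type B cells. Its levels were 65.5, 73.8, 52.7 and 54.9 CPM in the Control mice, 64.9, 50.1, 65.8 and 48.2 CPM in the 10CBD mice, and 49.0, 33.1, 59.4 and 46.2 CPM in the 20CBD mice. Of the 20CBD mice, 3 lay below every Control mouse and mouse 3 lay within the Control range, and the 10CBD mice lay from just below the Control range to its upper part. At 20 mg/kg the log2 fold change was -0.40 (SE 0.175, interval -0.77 to -0.02), with an unadjusted p of 0.0389 and an adjusted p of 0.56 by edgeR. At 10 mg/kg it was -0.11 (SE 0.174, adjusted p = 0.949), and between the doses it was -0.29 (SE 0.175, adjusted p = 0.83). Without 20CBD mouse 2, the lowest of all, the difference at 20 mg/kg was -0.26.

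Pendrin was also the member that differed most with the mitochondrial share. It averaged 66.0 ± 5.92 CPM (SD) in the 4 libraries of low share and 49.96 ± 9.06 CPM in the other 8, and 2 of the low libraries are in 10CBD against 1 in each other group. In the 8 libraries of higher share alone, the difference at 20 mg/kg was -0.43 (adjusted p = 0.296), and with the share as a covariate it was -0.28 (adjusted p = 0.141). The 8 libraries are Control mice 1, 3 and 4, 10CBD mice 2 and 4, and 20CBD mice 1, 2 and 4, so each group is smaller in that fit. The estimate at 10 mg/kg was -0.24 in the 8 libraries and -0.21 with the covariate, in place of -0.11. Between the doses it was -0.19 and -0.0625, in place of -0.29. The size of these pendrin estimates thus changed with the fit, not always in the same direction, while each stayed below 0. In the 8 libraries, the share and the choice of mice cannot be told apart.

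Slc4a9 (ENSMUSG00000024485, chr18:36661200-36689326, plus strand) encodes AE4, an anion exchanger of the basolateral membrane of type B cells. It measured 74.8, 61.6, 67.6 and 76.7 CPM in the Control mice. In the 10CBD mice it was at 59.5, 73.4, 72.8 and 57.8 CPM, and in the 20CBD mice at 58.0, 74.1, 61.0 and 58.2 CPM. The groups overlapped, with 3 of the 20CBD mice below all Control mice and mouse 2 near the top of the Control range. With a coefficient of variation of 11.5% over the 12 mice, it was the steadiest of the 9 genes, and its log2 fold change was -0.09 (SE 0.127, interval -0.36 to 0.18, adjusted p = 0.943) at 10 mg/kg and -0.16 (SE 0.127, interval -0.43 to 0.11, adjusted p = 0.799) at 20 mg/kg. Exons of Slc4a9 share 5 bases with the non-coding gene Gm56496 on the other strand.

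**Figure D1:**
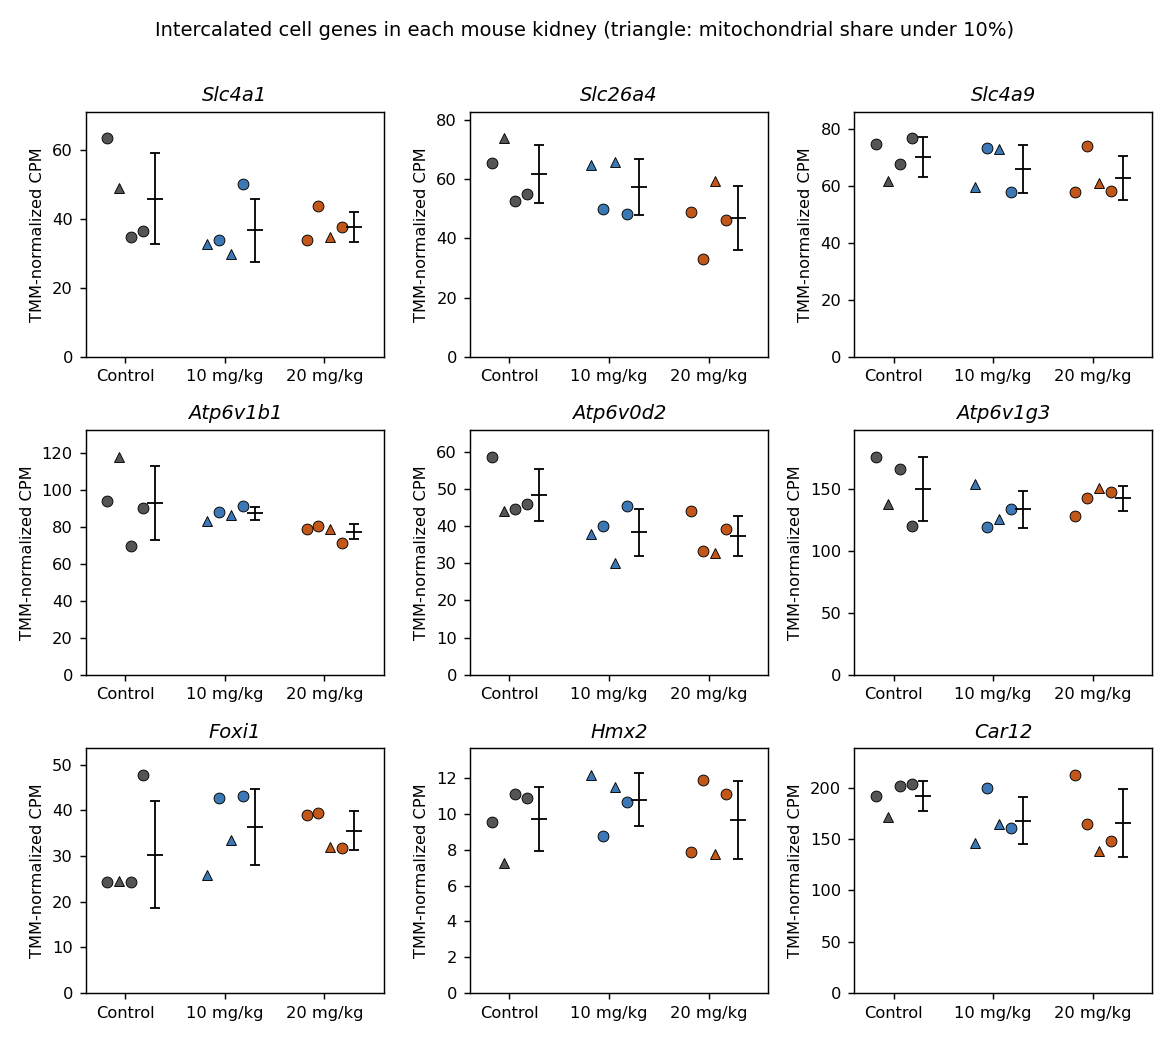
Level of each gene in CPM (vertical axis, from 0) in the 4 mice of each group (horizontal axis), with the group mean and SD as bar and whiskers at the right of each group, and triangles for the 4 libraries of low mitochondrial share. The groups overlap in every panel for each dose against Control, and Foxi1 in Control shows 1 mouse at 47.8 CPM above the other 3 at 24.4 to 24.6 CPM.

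The type A gene was set against each type B gene within the same library, since such a ratio does not depend on how libraries are scaled. The log2 ratio of Slc4a1 to Slc26a4 was -0.05, -0.59, -0.60 and -0.59 in the Control mice. It was -0.99, -0.56, -1.14 and 0.06 in the 10CBD mice, and -0.53, 0.40, -0.77 and -0.29 in the 20CBD mice. Control mice 2 to 4 shared nearly the same ratio, while the treated mice spread on both sides of it. The group means were -0.46 ± 0.27 (SD, n = 4), -0.66 ± 0.54 and -0.30 ± 0.50, and exact permutation tests, two-sided, gave p = 0.629 for 10CBD against Control, p = 0.629 for 20CBD against Control and p = 0.343 between the doses.

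The log2 ratio of Slc4a1 to Slc4a9 averaged -0.65 ± 0.43 in Control, -0.87 ± 0.48 in 10CBD and -0.74 ± 0.08 in 20CBD (SD, n = 4). In Control it split into mice 1 and 2 at -0.24 and -0.33 and mice 3 and 4 at -0.96 and -1.07, and all 20CBD mice lay between these pairs, from -0.81 to -0.62. The exact permutation p was 0.543 for 10CBD against Control, 0.686 for 20CBD against Control and 0.657 between the doses, and every one of the 6 ratio tests had an adjusted p of 0.686. With 4 mice against 4, the smallest p that the exact test allows is 0.0286. The type A and type B genes therefore showed no unequal change that was detectable with 4 mice per group.

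**Figure D2:**
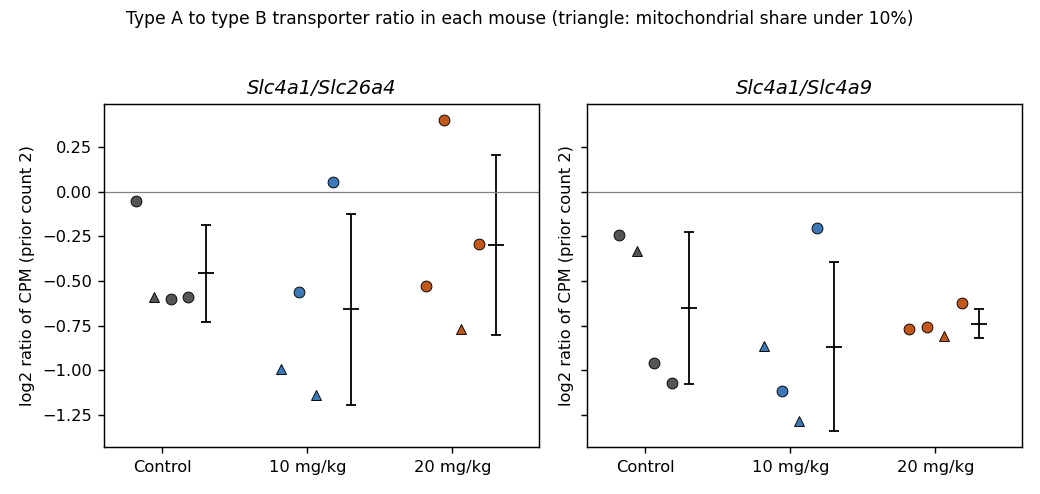
Log2 ratio of the CPM of Slc4a1 to that of Slc26a4 (left) and Slc4a9 (right) in each mouse by group, with mean and SD as bar and whiskers, and triangles for libraries of low mitochondrial share. The 20CBD mice lie within -0.81 and -0.62 on the right and spread from -0.77 to 0.40 on the left, and the groups overlap in both panels.

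Subunits of the vacuolar proton pump come next, and the members of the list are the isoforms that mark intercalated cells in the kidney. Atp6v1b1 (ENSMUSG00000006269, chr6:83719967-83735837, plus strand) encodes the B1 subunit of the catalytic V1 sector, whose loss causes distal renal tubular acidosis with deafness in humans. It was at 93.6, 118, 69.3 and 90.0 CPM in the Control mice, at 83.2, 88.1, 86.2 and 91.2 CPM in the 10CBD mice, and at 79.0, 80.2, 78.5 and 71.4 CPM in the 20CBD mice. Control mice differed widely, with an SD of 19.9 CPM against 3.33 and 3.97 CPM in the treated groups, and every 20CBD mouse lay below every 10CBD mouse. This last separation was the only one among the 9 genes in any comparison. Between the doses, 3.1% of all genes had groups that did not overlap, in either direction. For Atp6v1b1 the exact permutation p was 0.0286, unadjusted and the smallest possible. By edgeR the adjusted p was 0.879 (log2 fold change -0.17, SE 0.136, interval -0.46 to 0.12). Against Control, the log2 fold change was -0.09 (SE 0.136, adjusted p = 0.946) at 10 mg/kg and -0.26 (SE 0.136, interval -0.55 to 0.03, adjusted p = 0.639) at 20 mg/kg. Without Control mouse 2, which had the highest level, the first of these was 0.05 and the second -0.13.

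Atp6v0d2 (ENSMUSG00000028238, chr4:19876838-19922614, minus strand) encodes the d2 subunit of the membrane sector V0. Its levels were 58.7, 44.0, 44.6 and 46.0 CPM in the Control mice. The 10CBD mice had 37.8, 39.9, 30.2 and 45.3 CPM, and the 20CBD mice had 44.0, 33.4, 32.7 and 39.2 CPM. Most treated mice lay below the Control mice, with an overlap through mouse 4 of 10CBD and mouse 1 of 20CBD, and Control mouse 1 stood above the other Control mice. The log2 fold change was -0.34 (SE 0.148, interval -0.65 to -0.02) at 10 mg/kg, with an unadjusted p of 0.0386 and an adjusted p of 0.834. At 20 mg/kg it was -0.37 (SE 0.149, interval -0.69 to -0.06), with an unadjusted p of 0.0243 and an adjusted p of 0.503 (edgeR in both cases). Without Control mouse 1 the estimates were -0.23 and -0.26. With the mitochondrial share as a covariate, the estimate at 20 mg/kg was -0.43 with an adjusted p of 0.0777, in a model that called 8.08% of all genes tested in that comparison.

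Atp6v1g3 (ENSMUSG00000026394, chr1:138201461-138217200, plus strand) encodes the G3 subunit of the V1 stalk. It had the highest level per length of the 9 genes, with a mean of 74.7 RPKM and a range of 62.9 to 92.7 RPKM over the 12 mice. Its CPM were 176, 138, 166 and 119.9 in the Control mice, 154, 119.6, 126 and 134 in the 10CBD mice and 128.5, 143, 151 and 148 in the 20CBD mice. The Control mice were again the most spread, and both treated groups lay within or near their range. The log2 fold changes were -0.17 (SE 0.136, interval -0.46 to 0.12) at 10 mg/kg and -0.07 (SE 0.136, interval -0.36 to 0.21) at 20 mg/kg, with adjusted p-values of 0.906 and 0.929.

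Each of these subunits has a counterpart that is found in most cell types or in other tissues, and the ratio of the levels per length shows how much of the pair the intercalated form makes up in this tissue. Over the 12 mice the RPKM ratio of Atp6v1b1 to the widely expressed Atp6v1b2 was 0.762 ± 0.0847 (SD), that of Atp6v0d2 to Atp6v0d1 was 0.83 ± 0.218, and that of Atp6v1g3 to Atp6v1g1 was 2.61 ± 0.491. Atp6v1g2, a form best known from brain, was at 1.49 RPKM, and the ratio of Atp6v1g3 to it was 53.4 ± 19.4. Per length, the G3 form was thus above both other G subunits in every library, whereas B1 was below B2 in every library. The order of G3 and G1 rests on the lengths used, 1902 and 5170 bases over all annotated exons. In CPM, without length, Atp6v1g3 averaged 142.1 and Atp6v1g1 averaged 151.4 over the 12 mice. The other ratios rest on length as well. Atp6v1b1 averaged 85.7 CPM against 172.6 CPM for Atp6v1b2, and Atp6v0d2 averaged 41.3 CPM against 85.8 CPM for Atp6v0d1. The ratio of Atp6v0d2 to Atp6v0d1 averaged 0.984 ± 0.215 in Control, 0.781 ± 0.204 in 10CBD and 0.723 ± 0.194 in 20CBD (SD, n = 4), with overlapping ranges of 0.697 to 1.18, 0.556 to 0.980 and 0.454 to 0.914, and was not tested.

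**Figure D3:**
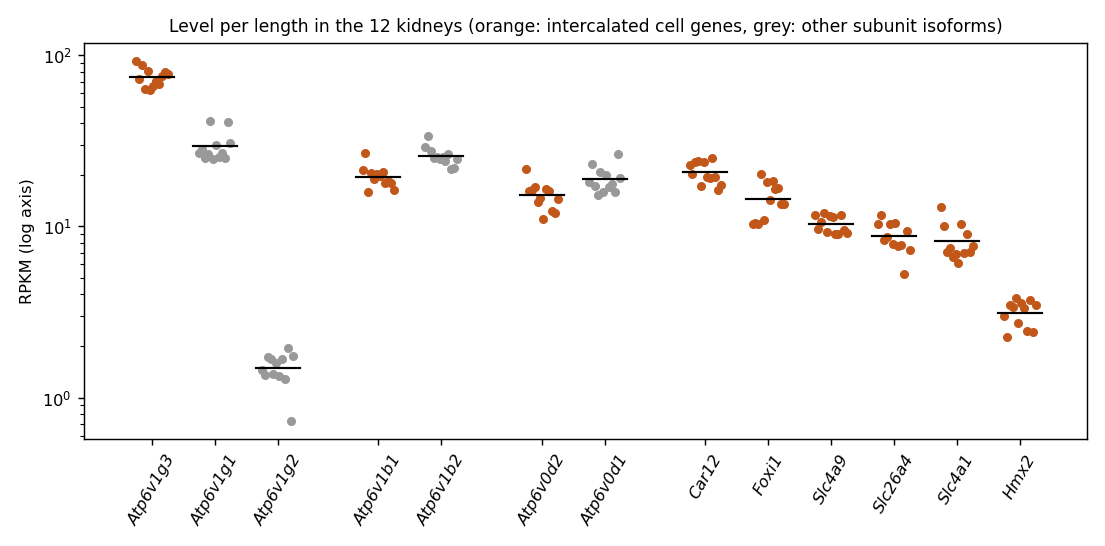
RPKM (vertical log axis) of the 9 genes (orange) and of other isoforms of the 3 pump subunits (grey) in the 12 mice, 1 point per mouse and a bar at the mean. Atp6v1g3 stands highest with a mean of 74.7 RPKM and Hmx2 lowest of the 9 with 3.13 RPKM. The means of Atp6v1b1 and Atp6v0d2 lie below those of their widely expressed counterparts.

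Foxi1 (ENSMUSG00000047861, chr11:34154338-34158089, minus strand), the forkhead factor, had levels of 24.4, 24.6, 24.4 and 47.8 CPM in the Control mice. The 10CBD mice had 25.8, 42.8, 33.6 and 43.1 CPM, and the 20CBD mice had 39.0, 39.4, 32.0 and 31.8 CPM. All treated mice lay above Control mice 1 to 3 and below Control mouse 4. The log2 fold change was 0.26 (SE 0.221, interval -0.21 to 0.73, adjusted p = 0.912) at 10 mg/kg and 0.23 (SE 0.221, interval -0.24 to 0.70, adjusted p = 0.845) at 20 mg/kg. Without Control mouse 4, the estimates were 0.57 and 0.54, and neither passed the test (adjusted p = 1.0 and 0.587). Foxi1 averaged 29.0 ± 4.46 CPM in the 4 libraries of low mitochondrial share and 36.6 ± 8.80 CPM in the other 8.

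Hmx2 (ENSMUSG00000050100, chr7:131150502-131159744, plus strand), a homeobox transcription factor, was the lowest of the 9 genes, at 3.13 RPKM and with 129 to 276 counts per library. It was at 9.57, 7.25, 11.1 and 10.9 CPM in the Control mice, at 12.2, 8.78, 11.5 and 10.7 CPM in the 10CBD mice and at 7.85, 11.9, 7.74 and 11.1 CPM in the 20CBD mice. The 3 groups covered almost the same range. The log2 fold change was 0.16 (SE 0.186, interval -0.24 to 0.55, adjusted p = 0.937) at 10 mg/kg and -0.01 (SE 0.187, interval -0.41 to 0.39, adjusted p = 0.997) at 20 mg/kg. Of the 2 transcription factors, neither had an estimate that left 0 outside its interval.

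Car12 (ENSMUSG00000032373, chr9:66615426-66674186, plus strand) encodes a carbonic anhydrase anchored in the plasma membrane, one of the enzymes that interconvert carbon dioxide and bicarbonate. It was at 192, 172, 202 and 204 CPM in the Control mice, 146, 200.5, 165 and 161 CPM in the 10CBD mice, and 213, 164.5, 138.5 and 148 CPM in the 20CBD mice. Of the 8 treated mice, 10CBD mouse 2 lay within the Control range, 20CBD mouse 1 lay above it, and the other 6 lay below it. The log2 fold change was -0.20 (SE 0.146, interval -0.51 to 0.12, adjusted p = 0.899) at 10 mg/kg and -0.21 (SE 0.146, interval -0.53 to 0.10, adjusted p = 0.762) at 20 mg/kg. The mean was 155 ± 15.7 CPM in the libraries of low mitochondrial share and 186 ± 24.1 CPM in the others. Exons of Car12 share 293 bases with Aph1b on the other strand, and the strand setting of the counting is not given in the sources used here, so reads of these genes may not be separated there.

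Ordered by level per length, the means over the 12 mice were 74.7 RPKM for Atp6v1g3, 20.7 for Car12, 19.5 for Atp6v1b1, 15.1 for Atp6v0d2, 14.4 for Foxi1, 10.3 for Slc4a9, 8.75 for Slc26a4, 8.18 for Slc4a1 and 3.13 for Hmx2. In RPKM, Atp6v1g3 exceeded Car12, and Slc4a1 exceeded Hmx2, in all 12 mice. Neighbours within the order were less distinct. Car12 exceeded Atp6v1b1 in 7 mice, Atp6v0d2 exceeded Foxi1 in 5, and Slc26a4 exceeded Slc4a1 in 8. In these pairs neither gene was above the other in every mouse, and the differences were not tested. Slc4a9 exceeded Slc26a4 in 10 mice. This order rests on the lengths used, those of all annotated exons. Without length, Car12 averaged 175.6 CPM against 142.1 CPM for Atp6v1g3, and Slc4a9 averaged 66.3 CPM against 34.0 CPM for Foxi1.

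Counted over the list at 10 mg/kg, edgeR called 0 of 9 genes, against 0.0291% of all genes tested. At an unadjusted p under 0.05 there was 1 of 9 (Atp6v0d2), against 5.67% of all genes, and 0 of 9 had groups that did not overlap, against 3.19%. Estimates lay below 0 for 7 of 9 genes, with a median log2 fold change of -0.11, against 47.7% of all genes with a median of 0.01. DESeq2 and limma-voom called 0 of 9 as well.

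At 20 mg/kg, edgeR, DESeq2 and limma-voom again called 0 of 9 genes, and edgeR called 0.303% of all genes tested. The unadjusted p was under 0.05 for 2 of 9 (Slc26a4 and Atp6v0d2), against 8.45% of all genes, and 0 of 9 had groups that did not overlap, against 5.3%. Estimates lay below 0 for 8 of 9, all but Foxi1, with a median of -0.21, against 47.5% of all genes with a median of 0.01. Both doses were compared with the same 4 Control mice, and the genes are not independent of each other, so the 2 counts are no separate evidence of a direction. Between the doses, edgeR called 0 of 9 genes and 0% of all genes, with 0 of 9 at an unadjusted p under 0.05 against 6.31%, and 1 of 9 without overlap (Atp6v1b1) against 3.1%. Estimates lay below 0 for 7 of 9, against 50.6% of all genes. Apart from Slc26a4 and Atp6v1b1, the log2 fold changes between the doses lay between -0.16 (Hmx2) and 0.09 (Atp6v1g3), with adjusted p-values of at least 0.92.

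**Figure D4:**
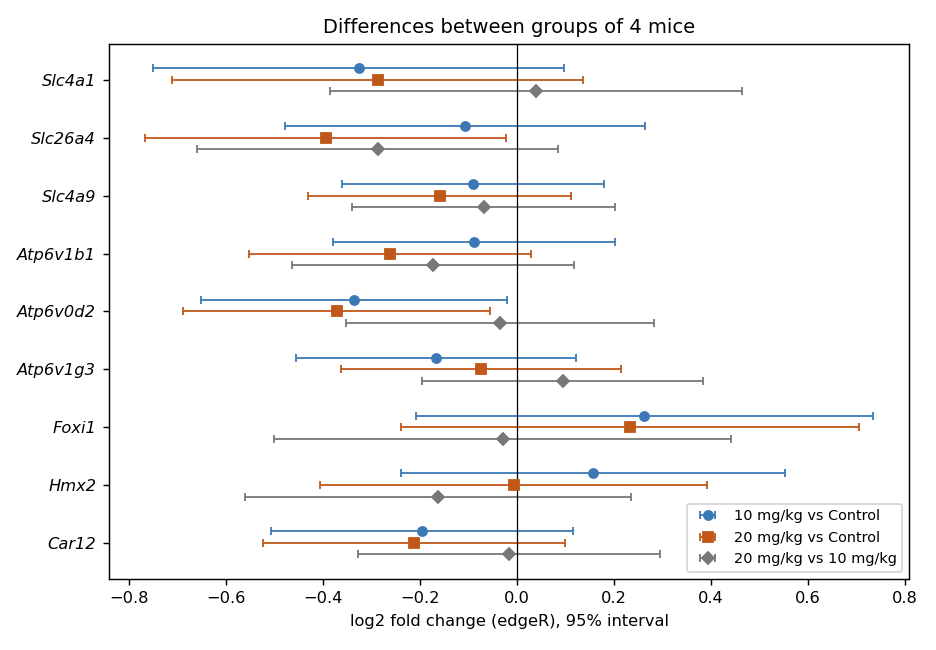
Log2 fold change (horizontal axis) of the 9 genes in the 3 comparisons, with 95% intervals from the edgeR model as whiskers. Every interval includes 0 except those of Atp6v0d2 at both doses and Slc26a4 at 20 mg/kg, for which the adjusted p-values were 0.834, 0.503 and 0.56.

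The summed level of the 9 genes was 673 to 758 CPM in Control, 616 to 657 CPM in 10CBD and 592 to 652 CPM in 20CBD, which is a description and was not tested. Principal cells, the neighbours of intercalated cells, were followed by 9 genes, of which 8 passed the filter (Avpr2 did not). The summed principal cell level was 272 to 452 CPM in Control, 318 to 427 CPM in 10CBD and 295 to 487 CPM in 20CBD. At either dose, 0 of 8 genes were called or had an unadjusted p under 0.05, against 5.67% and 8.45% of all genes with such a p. The ratio of the summed intercalated to the summed principal cell level was 2.19 ± 0.466 in Control, 1.79 ± 0.237 in 10CBD and 1.76 ± 0.415 in 20CBD (SD, n = 4), with ranges of 1.52 to 2.54, 1.5 to 2.07 and 1.22 to 2.21. The water channel Aqp2 was at 91.4 ± 22.5 CPM in the 4 libraries of low mitochondrial share and at 59.1 ± 21.8 CPM in the other 8, so the principal cell level moved with that share as well.

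Further genes known from intercalated cells were read from lists chosen for their cell type or complex. Of 6 other type A genes, 2 other type B genes and 13 genes of both types, edgeR called 0 in any comparison. At an unadjusted p under 0.05 there were 0, 0 and 2 of them at 10 mg/kg, 1, 0 and 3 at 20 mg/kg, and 0, 1 and 0 between the doses. Of all genes, 5.67%, 8.45% and 6.31% had such a p in these comparisons. Avpr1a, the vasopressin V1a receptor, had the smallest p of these lists. It was at 13.0, 12.8, 8.82 and 13.0 CPM in the Control mice, at 9.02, 8.18, 7.54 and 7.16 CPM in the 10CBD mice and at 7.85, 9.82, 5.28 and 5.87 CPM in the 20CBD mice. Control mouse 3 lay among the treated mice, and the other Control mice lay above all of them. Its log2 fold change was -0.58 (SE 0.196, unadjusted p = 0.00996, adjusted p = 0.812) at 10 mg/kg and -0.73 (SE 0.198, unadjusted p = 0.00227, adjusted p = 0.297) at 20 mg/kg by edgeR. DESeq2 called Avpr1a at 20 mg/kg (adjusted p = 0.0624), the only call of these 3 lists by DESeq2 or limma-voom. At that dose DESeq2 called 1.01% of all genes it tested.

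Of the other genes of both types, Atp6v1c2, the C2 subunit of the pump, had a log2 fold change of -0.28 (SE 0.128, adjusted p = 0.855) at 10 mg/kg and -0.36 (SE 0.129, adjusted p = 0.457) at 20 mg/kg. Atp6v0a4, the a4 subunit of the V0 sector and the highest of that list with 52.1 RPKM, was at 254 ± 33.2, 274 ± 18.2 and 248 ± 28.0 CPM (SD, n = 4) in Control, 10CBD and 20CBD. In the type A list, Kit, a receptor tyrosine kinase, was at 20.1 ± 4.09, 16.8 ± 3.91 and 15.0 ± 0.696 CPM in the same order. Adgrf5, the highest of that list with 17.0 RPKM, was at 162.1 ± 13.2, 147.5 ± 37.3 and 178.7 ± 25.7 CPM. Estimates of the type A list lay below 0 for 4 of 6 genes and above 0 for 2 at each dose. In the type B list, Insrr, a receptor kinase that senses alkaline pH, was at 22.1 ± 2.49, 19.9 ± 2.50 and 19.1 ± 2.01 CPM. Slc4a8, a sodium-driven bicarbonate exchanger, had a log2 fold change of -0.44 between the doses (SE 0.193, unadjusted p = 0.0362, adjusted p = 0.769). None of these differences passed the test.

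The wider proton pump was represented by 20 other subunits and accessory proteins, of which 19 passed the filter (Atp6v1e2 did not). edgeR called 0 of them in any comparison, and the unadjusted p was under 0.05 for 1 at 10 mg/kg, 2 at 20 mg/kg and 0 between the doses. The shares of all genes with such a p were 5.67%, 8.45% and 6.31%. DESeq2 and limma-voom called 0 of these subunits as well. Estimates lay below 0 for 14 of 19 at 10 mg/kg and 13 of 19 at 20 mg/kg, with medians of -0.07 and -0.11. All genes had 47.7% and 47.5% below 0. At each dose 2 of 19, Atp6v0e and Atp6v0c, had all treated mice below all Control mice, against 3.19% and 5.3% of all genes without overlap in either direction. Atp6v0e, a small subunit of the membrane sector, had the smallest unadjusted p of the list, 0.0151 at 10 mg/kg, and one of 0.0853 at 20 mg/kg. The Control mice had 78.1, 82.8, 79.4 and 85.0 CPM, the 10CBD mice 53.8, 70.9, 52.4 and 77.9 CPM, and the 20CBD mice 72.3, 67.8, 68.0 and 68.0 CPM. All treated mice lay below all Control mice, 10CBD mouse 4 by a small margin, and the log2 fold changes were -0.35 (SE 0.129, adjusted p = 0.812) and -0.24 (SE 0.129, adjusted p = 0.668). The highest subunit of the list, Atp6v1f, was at 173 RPKM and had adjusted p-values of 0.928 and 0.891. Atp6v0c, the proteolipid subunit of the membrane ring, is named for its lack of overlap, after its values were seen. It was at 130.3 ± 7.53, 111 ± 12.0 and 109 ± 5.49 CPM (SD, n = 4) in Control, 10CBD and 20CBD. Its margins were small, with the lowest Control mouse at 119.2 CPM and the highest treated mice at 118.8 (10CBD) and 117.4 CPM (20CBD). Its log2 fold changes were -0.23 (adjusted p = 0.87) and -0.26 (unadjusted p = 0.0342, adjusted p = 0.54). Atp6v1b2 had -0.21 (adjusted p = 0.872) and -0.29 (unadjusted p = 0.0278, adjusted p = 0.522).

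Among 7 other carbonic anhydrases, edgeR called 0 in any comparison, and 1 in each comparison had an unadjusted p under 0.05, with 0 calls by DESeq2 and limma-voom. Over all genes, 5.67% had such a p at 10 mg/kg, 8.45% at 20 mg/kg and 6.31% between the doses. Car9, a membrane carbonic anhydrase, was at 6.47, 8.4, 9.62 and 8.37 CPM in the Control mice, at 9.02, 8.78, 9.35 and 7.51 CPM in the 10CBD mice and at 10.7, 9.94, 11.2 and 12.2 CPM in the 20CBD mice. Every 20CBD mouse lay above every other mouse, with a log2 fold change of 0.42 (SE 0.149, unadjusted p = 0.0123, adjusted p = 0.443) against Control. Such a lack of overlap, in either direction, was found for 5.3% of all genes between 20CBD and Control and for 3.1% between the doses. Car4, the highest of these genes with 49.1 RPKM, had log2 fold changes of -0.32 (adjusted p = 0.828) at 10 mg/kg and -0.28 (adjusted p = 0.612) at 20 mg/kg.

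Covariation over the 12 mice was described by the Pearson correlation of log2 CPM, over 17154 genes other than the 9. The gene most like Slc4a1 was Aqp6, a water channel in vesicles of type A cells, with r = 0.88, followed by Btg2 (0.85), 5830444B04Rik (0.84), Ms4a4b (0.83) and Cryab (0.82). Aqp6 was at 59.1, 60.3, 30.6 and 25.2 CPM in the Control mice, at 24.2, 30.5, 22.8 and 45.7 CPM in the 10CBD mice and at 35.8, 47.1, 38.8 and 35.6 CPM in the 20CBD mice. Control mice 1 and 2 and 10CBD mouse 4, the mice high in Slc4a1, were among the high ones here as well. The genes most like Atp6v1b1 were Calb1 (0.86), the calcium-binding protein of distal and connecting tubules, Rap1gap2 (0.86), Scd2 (0.84), Map3k9 (0.84) and Dennd2b (0.84). Most like Slc26a4 were Aftph (0.95), Fggy (0.94), Rtn4ip1 (0.92), Glb1 (0.92) and Usp4 (0.91). All points share their library and its mitochondrial share, and these genes are the extremes of many, so no p is given.

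Covariation within the list was read from the pairs that involve Atp6v1b1, Slc4a1 or Slc26a4. Slc4a1 had r = 0.66 with Atp6v0d2, 0.51 with Atp6v1b1, 0.02 with Slc26a4 and 0.07 with Slc4a9, and the type B genes Slc26a4 and Slc4a9 had r = -0.07 with each other. Slc26a4 had r = -0.56 with Foxi1. The relation of Atp6v1b1 with the other 8 genes was tested as part of the 11 relations. Its Pearson r was highest with Slc26a4 (0.52, permutation p = 0.0915, rho 0.46, permutation p = 0.134) and Slc4a1 (0.51, permutation p = 0.0955, rho 0.43, permutation p = 0.168), and without the 2 mice farthest from its median, Control mice 2 and 3, r was 0.37 and 0.42. Among the 8 libraries of higher mitochondrial share these r were 0.34 and 0.55. The smallest adjusted p over the 11 relations was 0.381 for r and 0.349 for rho. The latter belonged to Atp6v1b1 with the proximal tubule gene Lrp2 (r 0.49, permutation p = 0.104, rho 0.63, permutation p = 0.0317), with r 0.66 without those 2 mice and 0.46 among the 8 libraries. With the principal cell gene Aqp2, Atp6v1b1 had r 0.42 (permutation p = 0.181) and rho 0.23 (permutation p = 0.468), and r was -0.12 without those 2 mice and 0.27 among the 8 libraries.

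**Figure D5:**
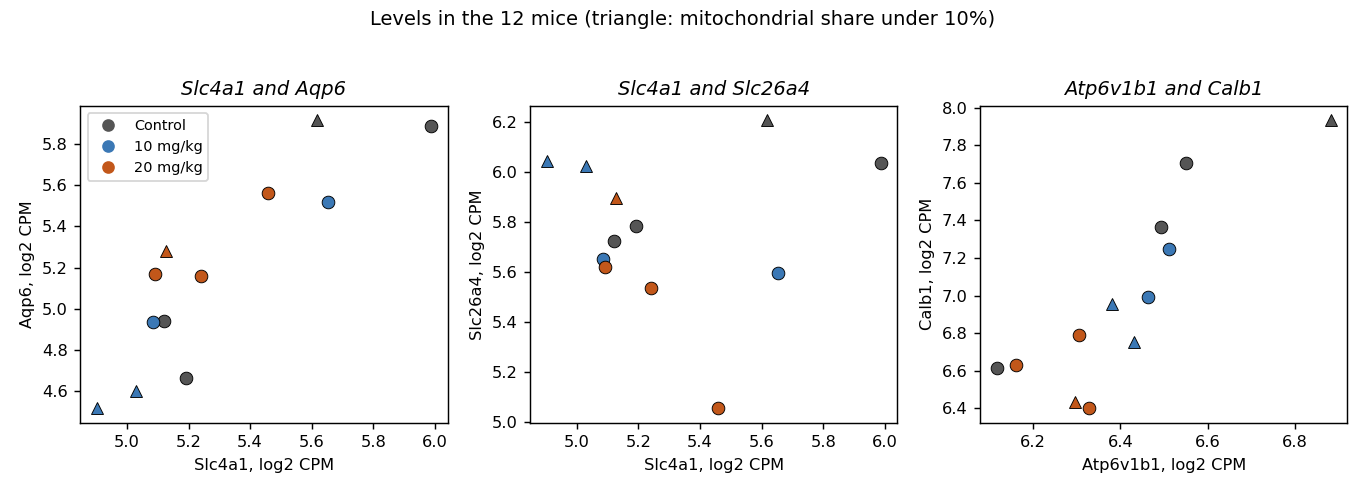
Log2 CPM of Slc4a1 against Aqp6 (left), Slc4a1 against Slc26a4 (middle) and Atp6v1b1 against Calb1 (right), 1 point per mouse, coloured by group, with triangles for libraries of low mitochondrial share. The left and right panels show r of 0.88 and 0.86, for pairs chosen as the most alike, and the middle panel shows r of 0.02 for the type A and type B exchangers.

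Markers of other kidney cells were measured beside the list. Of 4 proximal tubule genes, edgeR called 1, at 20 mg/kg, where it called 0.303% of all genes. Slc5a2, the sodium-glucose transporter SGLT2, fell at that dose by 0.61 on the log2 scale (SE 0.124, adjusted p = 0.082), from 217 ± 16.2 CPM in Control to 143 ± 13.6 CPM (SD, n = 4). Lrp2, the endocytic receptor megalin, had -0.76 (adjusted p = 0.173). The summed proximal level was 5840 to 7481 CPM in Control, 4620 to 5691 CPM in 10CBD and 4563 to 4995 CPM in 20CBD. Among 5 distal and connecting tubule genes 0 were called, Calb1 had a log2 fold change of -0.91 (adjusted p = 0.168) at 20 mg/kg, and the summed level was 1496 to 2534, 1503 to 1819 and 1382 to 1752 CPM in the 3 groups. Of the thick ascending limb (3 genes), endothelial (3 genes) and podocyte (2 genes) lists, edgeR, DESeq2 and limma-voom called 0. DESeq2, which called 1.01% of all genes at 20 mg/kg, also called Lrp2 (adjusted p = 0.00534) and Calb1 (adjusted p = 0.0118) at that dose, and limma-voom called neither. These levels moved beside those of the list, and their part in the differences of the 9 genes was not tested.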

How the data were processed

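Kidney poly(A) libraries (CORALL kit, paired reads) were trimmed with Flexbar, mapped to GRCm39 with STAR and counted with htseq-count by the authors. Versions in the submitters' processing notes are STAR 2.7.5c and HTSeq 1.99.2. The deposited files hold whole counts per Ensembl gene and library, without normalization, followed by summary lines, which were left out. The annotation release, strand setting and use of molecular identifiers are not given in the sources used here.

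Identifiers were matched to GENCODE vM39, which holds 99.02% of them and gave exon lengths for RPKM. In edgeR 4.0.16 (R 4.3.3), genes were kept by filterByExpr, scaling was by TMM, and all 12 libraries entered 1 quasi-likelihood model of group means, with Benjamini-Hochberg adjustment over 17163 genes and a threshold of 0.1. The intervals rest on the model's degrees of freedom. Ratios used log2 CPM with a prior count of 2 and exact permutation tests. Correlations used 100000 permutations. The script was tested on simulated data. Alternatives were RLE and upper-quartile scaling, DESeq2 1.42.0, limma-voom (limma 3.58.1), no filter, only the groups compared, a replicate block, the mitochondrial share as covariate, removal of mitochondrial and ribosomal RNA genes, a threshold of 0.05, a prior count of 0.5 for ratios, and leaving out each library. A fit of the 8 libraries of higher mitochondrial share was chosen after seeing the data.

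The 9 genes and all lists were chosen with earlier results of these data known. Named besides the 9 genes were other isoforms of their pump subunits, from each list the called genes, the highest per length and the 2 of smallest p, and the 5 genes most correlated with Atp6v1b1, Slc4a1 and Slc26a4.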

Additional observations from a re-analysis of the deposited data

Results flagged for a closer look

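In 33 groups of 4 mice, the highest or lowest mouse was compared with the others by Dixon's ratio of gap to range, which chance alone brings past its 95% limit in about 1 in 20 groups. The limit was passed in 3 groups, all Control. Foxi1 stood at 47.8 CPM in Control mouse 4, against 24.4 to 24.6 CPM in the other Control mice (ratio 0.991). Atp6v0d2 stood at 58.7 CPM in Control mouse 1, against 44.0 to 46.0 CPM in the others (ratio 0.862). The linear ratio of Slc4a1 to Slc26a4 stood at 0.967 in Control mouse 1, against 0.658 to 0.665 in the others (ratio 0.979).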

How the results depend on the processing

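The count of called genes of the list was 0 in all 3 comparisons under all alternatives but 1. With the mitochondrial share as covariate, 1 gene (Atp6v0d2, log2 fold change -0.43, adjusted p = 0.0777) was called at 20 mg/kg, in a model that called 1386 of all genes, against 52 in the model of the report; the cause was not tested. Leaving out 1 mouse, the count stayed at 0 in all 3 comparisons. The log2 ratio of Slc4a1 to Slc26a4 at 20 mg/kg against Control then ranged from -0.072 (without 20CBD mouse 2) to 0.32, at 10 mg/kg from -0.44 to -0.042, and between the doses from 0.13 to 0.60. That of Slc4a1 to Slc4a9 ranged from -0.23 to 0.0486 at 20 mg/kg against Control, above 0 without Control mouse 1 or 2, from -0.44 to -0.0777 at 10 mg/kg, and from -0.0105 (without 10CBD mouse 3) to 0.35 between the doses.

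With 1 mouse left out, small estimates changed sign. Against Control at 10 mg/kg, Atp6v1b1 ranged from -0.21 to 0.0463. At 20 mg/kg, Atp6v1g3 ranged from -0.17 to 0.0168 and Hmx2 from -0.12 to 0.0845. Between the doses, the ranges were -0.0474 to 0.23 for Slc4a1, -0.13 to 0.0555 for Atp6v0d2, -0.16 to 0.0653 for Foxi1 and -0.16 to 0.0794 for Car12. In the 8 libraries of higher mitochondrial share, a fit chosen after seeing the data, Atp6v1b1 was at 0.0845 and Hmx2 at -0.11 at 10 mg/kg, and Slc4a1 at -0.12 and Hmx2 at 0.0845 between the doses. With the share as covariate, Slc4a1 was at -0.0265 between the doses. None of these passed the test.

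The replicate numbers name separate mice. Deviations of same-numbered mice had correlations from -0.33 to 0.32, with 4 of 12 pairs over 0.1, and 3 libraries correlated best with their own number. With the replicate block, Hmx2 was at 0.0031 at 20 mg/kg and Foxi1 at 0.0074 between the doses, the list had 0 calls, and all genes had 4 at 10 mg/kg and 27 at 20 mg/kg.

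Counts over all genes depended on the method. At 10 mg/kg, at 20 mg/kg and between the doses, edgeR called 5, 52 and 0 genes, DESeq2 34, 167 and 13, the fit without a filter 331, 416 and 256, the covariate fit 15, 1386 and 62, and the 8 libraries 26, 107 and 0. With 4 mice per group, the 95% intervals of the 9 genes reach 0.271 to 0.472 on the log2 scale to either side of the estimate. A call after adjustment over all genes needs a larger difference than that, as Atp6v0d2 and Slc26a4 at 20 mg/kg show.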
